A study of Mus musculus with 6 samples.

Results

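The 9 CXC chemokine genes Cxcl1, Cxcl2, Cxcl3, Cxcl9, Cxcl10, Cxcl11, Cxcl12, Cxcl14 and Cxcl16 were examined among 18820 tested genes in macrophages labelled as a knockout of Gps2, which encodes a co-repressor subunit. They are a named part of the CXC family, chosen with earlier results of these data known, and 6 further CXC chemokines, of which 1 fell and 1 rose, are given apart. Each of the 9 had 1 probe set whose only annotated symbol was that gene. RNA of cultured bone marrow-derived macrophages was hybridised to Affymetrix arrays, 3 for wild-type animals (WT) and 3 for animals with a macrophage knockout of Gps2 (GPS2KO). All mice were male and about 12 to 16 weeks old. In both groups the marrow cells grew for 7 days in medium with 30% supernatant of L929, a fibroblast line that supplies macrophage growth factor, and received no stimulus. The labels name neither the deleted exons nor a Cre driver and do not tie an array to an animal. The p-values therefore speak only of the spread among these 6 samples, part or all of which may be technical.

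CXC chemokines are small secreted proteins that guide leukocytes through G protein-coupled receptors. Cxcl9, Cxcl10 and Cxcl11 are induced by interferons, bind CXCR3 and draw activated T cells and NK cells. Cxcl1, Cxcl2 and Cxcl3 carry a glutamate-leucine-arginine motif ahead of the paired cysteines, bind CXCR2 and draw neutrophils, and macrophages make them through NF-kappaB. Cxcl12 binds CXCR4 and keeps blood precursors in marrow, Cxcl14 is a chemokine of epithelia and stroma, and Cxcl16 is a membrane-bound ligand of CXCR6 that also takes up oxidised lipoprotein.

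Of the 9 members, 5 fell in GPS2KO macrophages and 0 rose, whereas 4 did not pass the test, and over all tested genes 3.83% fell and 2.9% rose. The falls were those of Cxcl10, Cxcl9, Cxcl14, Cxcl2 and Cxcl16, in order of size, and they ran from 3.07-fold to 1.23-fold. These counts are from limma with Benjamini-Hochberg adjustment over all genes at a threshold of 0.05. At an unadjusted p under 0.05 they were likewise 5 and 0. In 5 of the 9 every GPS2KO array lay below every WT array, which held for 15.2% of all tested genes. The median change of the 9 members was -0.29 on the log2 scale, against -0.01 over all genes. Among the 4 that did not pass, Cxcl1, Cxcl3 and Cxcl11 lay in both groups under 5.49, the 40th percentile of gene means, which is called the dim limit here. Such signals hold a large share of background, and fold changes there are compressed. Of 7528 dim genes 0.478% fell, against 6.06% of the 11292 brighter ones.

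**Figure D1:**
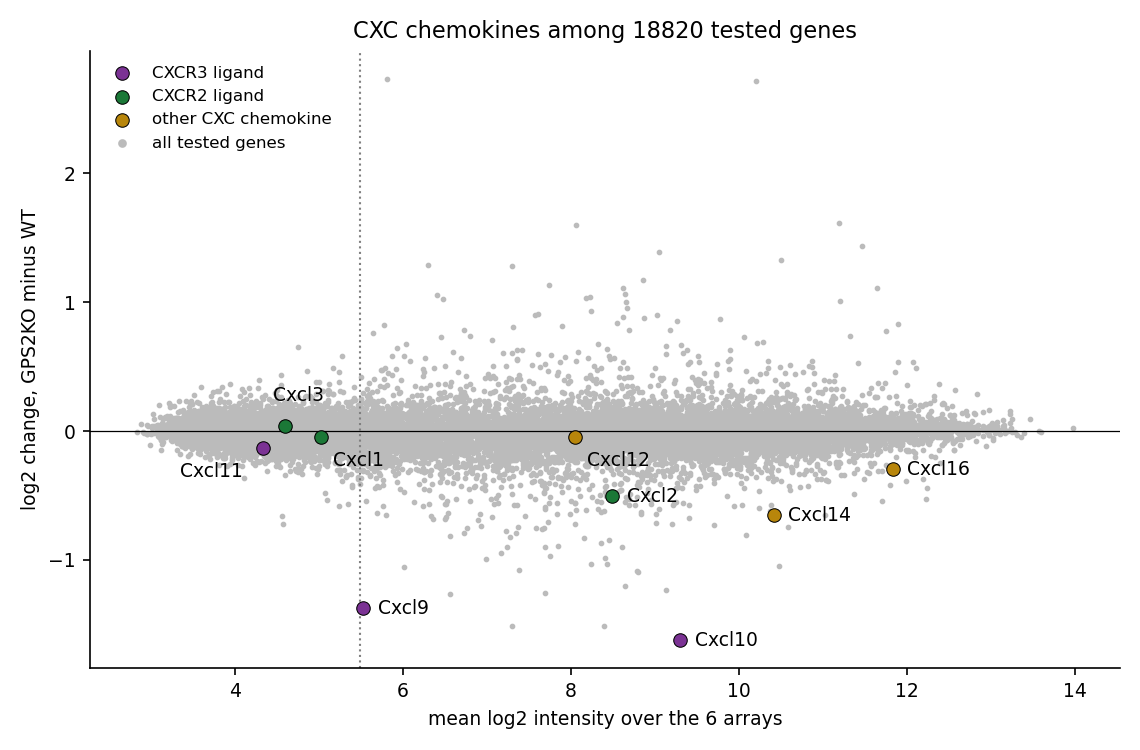
Each point is a gene, with its mean log2 intensity over the 6 arrays across and its log2 change, GPS2KO minus WT, upwards; the 9 CXC chemokines are coloured by receptor class and the dotted line is the dim limit of 5.49. Cxcl10 lies lowest of all points at -1.62, with Cxcl9 at -1.37, while Cxcl1, Cxcl3 and Cxcl11 sit in the dim range near 0.

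Across the arrays as a whole, medians lay between 5.565 and 5.597. Pearson correlations over all probe sets were 0.9971 to 0.9975 for arrays of 1 group and 0.9959 to 0.9969 for arrays of unlike groups. Gps2 itself fell to 59.7% of the WT signal with no overlap of groups (log2 change -0.75, SE 0.0472, adjusted p = 0.000256), although a probe set that lies outside the deleted exons is no check of the deletion. All 8 macrophage markers examined, among them Adgre1, Cd68, Csf1r and Lyz2, lay above the dim limit in both groups. The log2 of their summed linear (unlogged) signals was 15.34 to 15.38 in WT and 15.40 on the GPS2KO arrays. Of these 8, Mertk and Itgam rose, by 0.24 and 0.19, and 0 fell (0 also unadjusted). The rise of Itgam did not pass once any 1 of the 6 arrays was dropped (adjusted p up to 0.1). Centring each array on its median gave 1061 falls and 460 rises among all genes in place of 720 and 545, so the share of rises was 30.2% against 43.1%, and the counts of members stayed at 5 falls and 0 rises.

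The genes of the CXCR3 ligands lie together on chromosome 5, and the stretch before the start of Cxcl10 and Cxcl9 is shown because these are the 2 members that fell furthest. Each is given 5′ to 3′ on the gene's strand, from 250 bases before the start to the last base before it, from RefSeq sequence of assembly GRCm38.p6. Capitals mark matches to the core of the interferon-stimulated response element (ISRE), GAAANNGAAA, or to a kappaB pattern, GGGNNNTTCC, searched on both strands. A further pattern, TTCNNNGAA, stood for the gamma-activated site.
Cxcl10, chr5:92348890-92349139, minus strand: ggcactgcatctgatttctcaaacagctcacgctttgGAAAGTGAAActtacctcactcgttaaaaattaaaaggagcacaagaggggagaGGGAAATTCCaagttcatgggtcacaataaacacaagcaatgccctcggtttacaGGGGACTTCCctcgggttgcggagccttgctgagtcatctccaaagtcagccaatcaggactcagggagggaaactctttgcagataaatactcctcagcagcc
Cxcl9, chr5:92328080-92328329, minus strand: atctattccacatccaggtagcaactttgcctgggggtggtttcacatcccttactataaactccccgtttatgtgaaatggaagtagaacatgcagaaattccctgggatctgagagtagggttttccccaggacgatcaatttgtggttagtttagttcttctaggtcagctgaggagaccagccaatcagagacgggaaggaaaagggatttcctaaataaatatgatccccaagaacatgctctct
The Cxcl10 stretch holds 1 ISRE core, GAAAGTGAAA, from 213 to 204 bases before the start. It also holds 2 kappaB matches, GGGAAATTCC from 159 to 150 bases and GGGGACTTCC from 104 to 95 bases before it. The Cxcl9 stretch holds none of the 3 patterns, which says only that these letters are not in this window. An ISRE core stands in 2.98% of all 32851 stretches of this length in the table, a kappaB match in 4.65% and the TTCNNNGAA pattern in 7.02%. For Cxcl11 and Cxcl16 no such sequence is shown.

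Cxcl10, the interferon-induced attractant of T cells, gave log2 signals of 10.23, 9.82 and 10.28 in WT and 8.34, 8.61 and 8.52 in GPS2KO. The lowest WT array lay more than 1 unit above the highest GPS2KO array. The means were 10.11 ± 0.25 and 8.49 ± 0.14 (SD, n = 3 each). Cxcl10 thus fell by 1.62 to 32.5% of the WT signal (SE 0.126, 95% confidence interval -1.91 to -1.33, limma adjusted p = 0.000479). On the 6 arrays this was the largest fall of any tested gene. It ranked 2 without WT replicate 3 and 3 without GPS2KO replicate 2.

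Cxcl9, the ligand most closely tied to interferon gamma, stood at 6.49, 6.27 and 5.89 in WT and at 4.84, 4.82 and 4.86 in GPS2KO. The WT arrays spread over 0.6 units, whereas the GPS2KO arrays were nearly alike and all under the dim limit. Its means were 6.22 ± 0.30 and 4.84 ± 0.02 (SD, n = 3 each), and it fell by 1.37 (limma, SE 0.133, 95% confidence interval -1.68 to -1.07, adjusted p = 0.00121). Because the GPS2KO signal is dim, the 2.59-fold difference may be compressed. The order of Cxcl9 and Cxcl10 by size of fall is not settled either: their confidence intervals overlap, and without WT replicate 3 Cxcl9 ranked first among all genes.

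Cxcl11, the remaining CXCR3 ligand, is listed in RefSeq for the C57BL/6J assembly as a transcribed pseudogene, and the labels do not give the strain of these mice. It read 4.44, 4.38 and 4.41 in WT and 4.21, 4.21 and 4.42 in GPS2KO. All 6 values were dim, and GPS2KO replicate 3 lay within the WT range, so the groups overlapped. The difference of -0.13 (95% confidence interval -0.28 to 0.01, adjusted p = 0.29) did not pass.

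**Figure D2:**
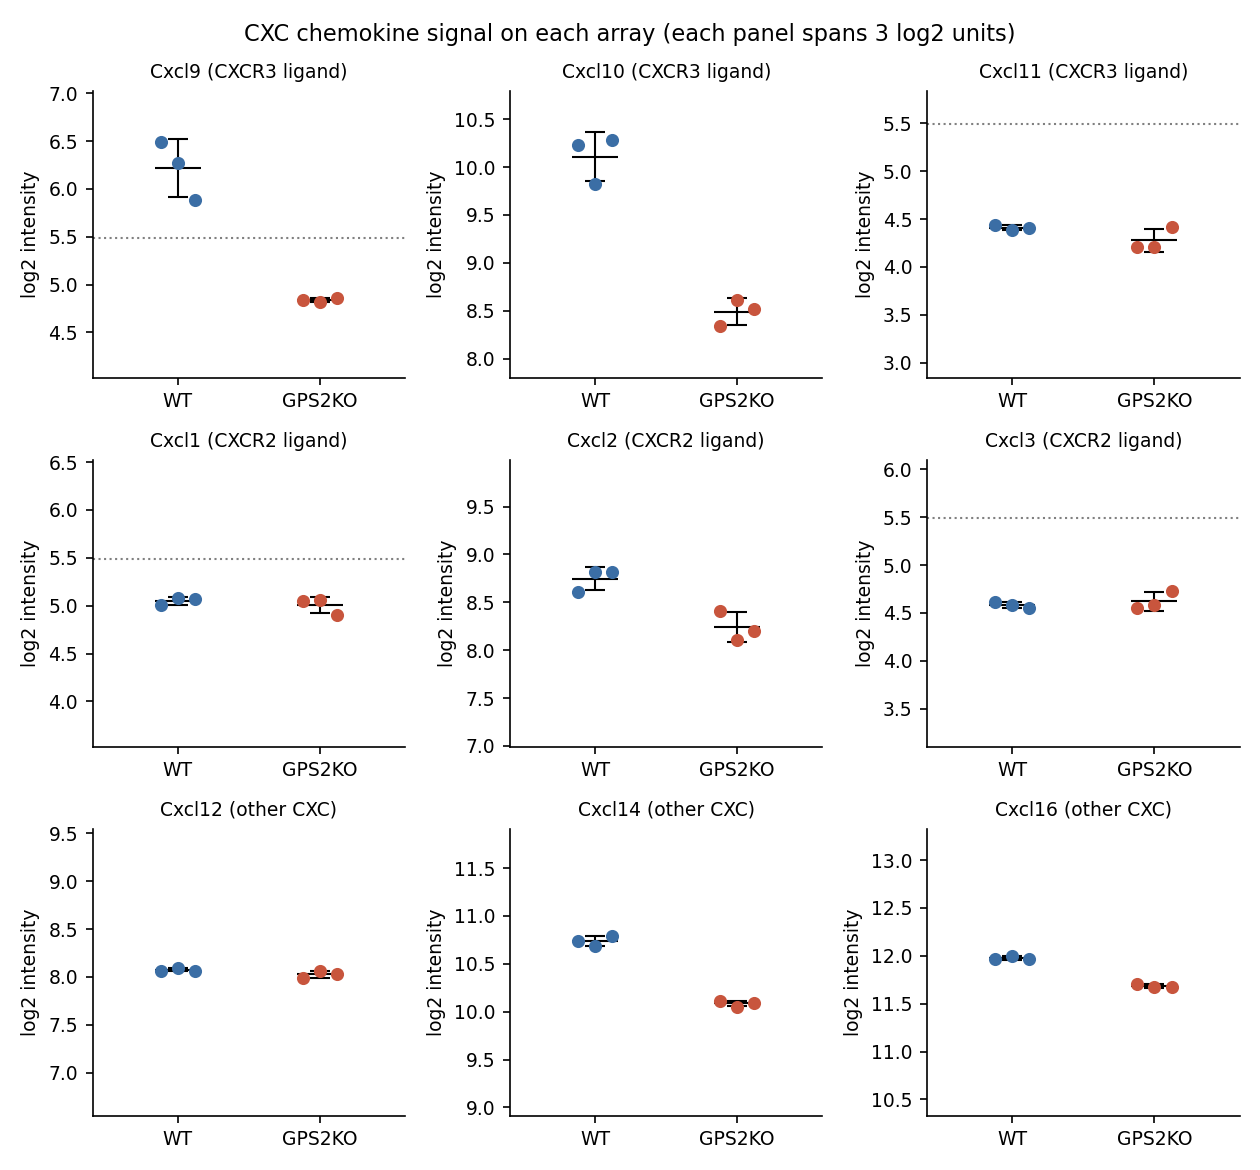
Log2 intensity of each CXC chemokine on the 3 WT (blue) and 3 GPS2KO (red) arrays, with the group mean (long dash) and SD (bar); each panel spans 3 log2 units around its own centre, and the dotted line is the dim limit where it falls in the panel. GPS2KO arrays lie below all WT arrays for Cxcl9, Cxcl10, Cxcl2, Cxcl14 and Cxcl16, and the groups overlap for the other 4.

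The 3 members classed as CXCR2 ligands lie in another run on chromosome 5. A stretch of each promoter is shown because all 3 hold the same kappaB match and, of these 3, Cxcl2 alone passed the test. The match GGGAATTTCC is in capitals, with 25 bases on either side, 5′ to 3′, from the same RefSeq assembly; it begins 97 bases before the start of Cxcl2, 71 before Cxcl1 and 73 before Cxcl3.
Cxcl2, chr5:90903777-90903836, plus strand: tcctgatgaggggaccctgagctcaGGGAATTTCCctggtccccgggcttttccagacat
Cxcl1, chr5:90891149-90891208, plus strand: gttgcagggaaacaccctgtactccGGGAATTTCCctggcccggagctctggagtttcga
Cxcl3, chr5:90786003-90786062, plus strand: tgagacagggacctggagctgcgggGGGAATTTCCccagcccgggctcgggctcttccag
Aligned on the match without gaps, Cxcl2 and Cxcl1 have the same base at 30 of 60 positions, Cxcl2 and Cxcl3 at 24, and Cxcl1 and Cxcl3 at 28. These counts include the bases of the match itself, which are the same because the windows were chosen on it. Likeness of the flanks alone is therefore lower and was not tested. In each gene a match on the opposite strand overlaps the one in capitals, shifted by 1 base. Each window also holds a further match left in lower case, GGGCTTTTCC in Cxcl2, GGGCTCTTCC in Cxcl3 and, on the opposite strand, GGAAACACCC in Cxcl1. None of the 3 upstream stretches holds the ISRE core or the TTCNNNGAA pattern.

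Cxcl2, a neutrophil attractant made early by activated macrophages, was the one of these 3 with a signal above the dim limit. Its log2 values were 8.61, 8.81 and 8.82 in WT and 8.41, 8.11 and 8.20 in GPS2KO. The groups did not overlap, but WT replicate 1 and GPS2KO replicate 1 were only 0.2 units apart. With means of 8.75 ± 0.12 and 8.24 ± 0.16 (SD, n = 3 each), Cxcl2 fell 1.42-fold, a log2 change of -0.51 (limma, SE 0.0903, 95% confidence interval -0.72 to -0.30, adjusted p = 0.0162). The call ended without WT replicate 2, WT replicate 3, GPS2KO replicate 2 or GPS2KO replicate 3, at adjusted p from 0.0556 to 0.0662.

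Cxcl1, the homologue of the human growth-regulated oncogene chemokines, read 5.005, 5.08 and 5.07 in WT and 5.05, 5.06 and 4.91 in GPS2KO. Cxcl3 read 4.61, 4.59 and 4.56 in WT and 4.55, 4.58 and 4.73 in GPS2KO. For both genes the groups overlapped and every array was dim. The differences were -0.05 for Cxcl1 (95% confidence interval -0.17 to 0.07, adjusted p = 0.674) and 0.04 for Cxcl3 (95% confidence interval -0.09 to 0.17, adjusted p = 0.766). At such low signal a change of the transcripts may be hidden, so the intervals bound the change of signal only. These 3 CXCR2 ligands are similar paralogs, and cross-hybridisation between their probe sets was not tested.

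The interferon-induced Cxcl10 and the neutrophil-attracting Cxcl2 were set against each other within each array. Cxcl10 was the member that fell furthest, so the pair does not stand for its classes and the comparison is descriptive. The log2 signal of Cxcl10 minus that of Cxcl2 was 1.63, 1.01 and 1.46 in WT and -0.07, 0.51 and 0.32 in GPS2KO. These differences set probe sets of unlike brightness side by side, and only their change between groups can be read. The change was -1.11, so Cxcl10 fell 2.16-fold further than Cxcl2, and all GPS2KO arrays lay below all WT arrays. With 20 arrangements of 6 arrays the smallest p possible is 0.1, and this was the p of the exact 2-sided permutation test, so it cannot reach 0.05. The same difference against Cxcl1 was computed but is not read, because Cxcl1 was dim on every array.

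Of the members outside these classes, Cxcl14 changed most. Its values were 10.74, 10.69 and 10.80 in WT and 10.11, 10.05 and 10.10 in GPS2KO. Arrays within a group differed by about 0.1, far less than the gap between groups. Cxcl14 fell from 10.74 ± 0.05 to 10.09 ± 0.03 (SD, n = 3 each), by 0.65 (SE 0.0433, 95% confidence interval -0.75 to -0.55, adjusted p = 0.00028), to 63.6% of the WT signal. The 250 bases before its start hold 1 ISRE core, GAAACAGAAA, from 172 to 163 bases before it, and 1 match to TTCNNNGAA.

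Cxcl16, which macrophages carry on their surface and shed, read 11.97, 12.00 and 11.97 in WT and 11.70, 11.67 and 11.67 in GPS2KO. The groups stood apart, with SDs of 0.02 in each. Cxcl16 fell 1.23-fold, the smallest fall among the 5, with a log2 change of -0.29 (limma, SE 0.0362, 95% confidence interval -0.38 to -0.21, adjusted p = 0.0033). A further probe set is annotated to both Cxcl16 and its overlapping neighbour Zmynd15, and was left out of the test for that reason. It went from 9.43 ± 0.07 to 8.75 ± 0.10 (SD, n = 3 each), a log2 change of -0.68 (SE 0.0636, adjusted p over all probe sets = 0.00839), and its signal cannot be assigned to either gene.

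Cxcl12, the stromal chemokine that retains precursors in marrow, read 8.06, 8.09 and 8.06 in WT and 7.99, 8.07 and 8.03 in GPS2KO. It was the member above the dim limit in both groups that did not pass: its groups overlapped, and it differed by -0.05 (95% confidence interval -0.14 to 0.04, adjusted p = 0.571). Its interval excludes a fall as large as that of any of the 5 members that passed.

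**Figure D3:**
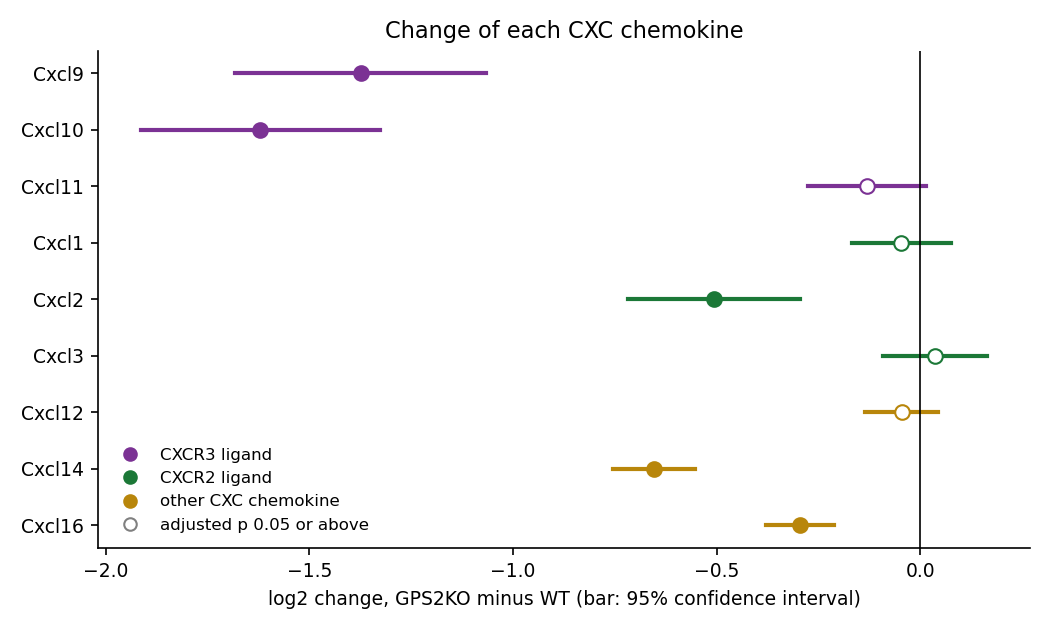
Log2 change, GPS2KO minus WT, of each CXC chemokine (point) with its 95% confidence interval (bar); colours give the receptor class and open points did not pass. The intervals of Cxcl10 (-1.91 to -1.33) and Cxcl9 (-1.68 to -1.07) lie wholly below those of the other 7 genes.

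Cxcl12 and Cxcl14 are products of stroma and fibroblasts, so markers of those cells were read beside them. Several were far above the dim limit in both groups, with WT means of 11.97 for Col1a1 (collagen I), 12.24 for Postn (periostin) and 11.07 for Pdgfrb, a receptor of mesenchymal cells, although the cultures are labelled as macrophages. Of 10 markers tested 3 fell, 1 rose and 6 did not pass, with a median change of -0.09, and 2 (Lepr and Lum) were dim in both groups. The log2 of their summed linear (unlogged) signals ran from 13.86 to 13.91 in WT and from 13.74 to 13.76 in GPS2KO, without overlap. Such a sum is carried mostly by the brightest markers, here Postn and Col1a1. Pdgfrb fell by 0.28, Thy1 by 0.30 and Col1a1 by 0.20, while Dcn, which encodes the matrix protein decorin, rose by 0.30. Col1a1 passed only when WT replicate 1 was the array left out (adjusted p otherwise up to 0.0796). Thy1 lost its call on leaving out WT replicate 1, WT replicate 3 or GPS2KO replicate 1 (up to 0.0562), and Dcn on leaving out replicate 1 or 2 of either group (up to 0.115). These falls were smaller than that of Cxcl14, and their part in it was not tested. In bulk RNA, fewer cells of a type and less RNA per cell cannot be told apart.

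The neighbours of the chemokine genes on chromosome 5 were read beside them, and with 3.83% of all genes fallen few calls would be met in so few genes. The CXCR3 ligands lie around Art3, an ADP-ribosyltransferase gene, which read 3.997 in WT and 3.96 in GPS2KO, dim in both, with a difference of -0.04 (adjusted p = 0.775). Of the 3 tested genes on each side, Ppef2, Naaa and Sdad1 on one and Nup54, Scarb2 and Fam47e on the other, 0 passed (limma), with changes from -0.12 to 0.08, and Ppef2 and Fam47e were dim in both groups. Of those flanking the CXCR2 ligand run, Afp, Afm, Rassf6, Mthfd2l, Epgn and Ereg, 0 passed either, with changes from -0.08 to 0.01, but all of these except Mthfd2l were dim. Inside that run lie the platelet chemokines Ppbp and Pf4, described with the other ligands.

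**Figure D4:**
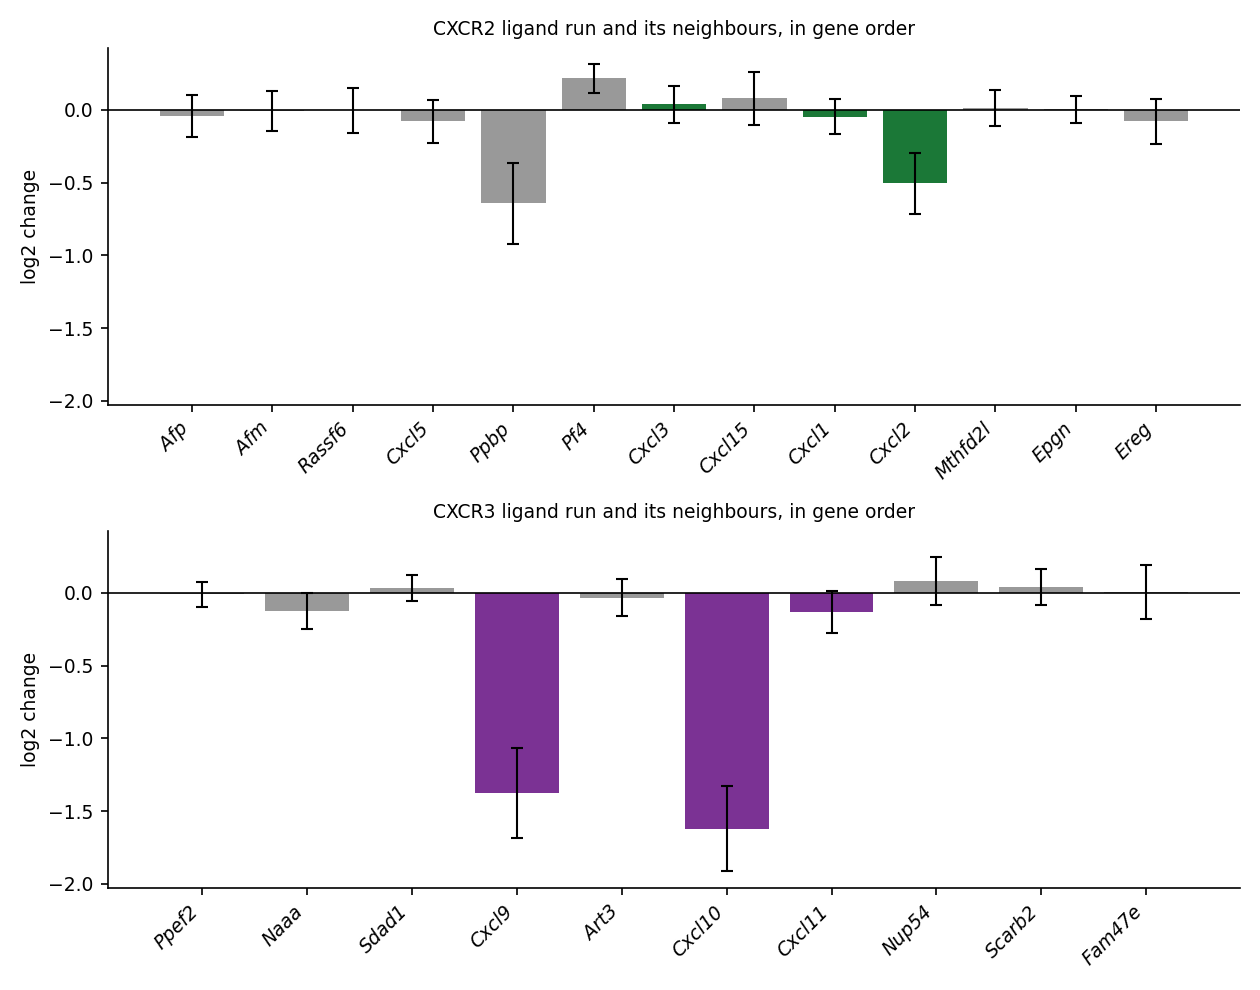
Log2 change (bar, GPS2KO minus WT) with 95% confidence interval (whisker) of tested genes in their order along chromosome 5, evenly spaced. Coloured bars are members classed as CXCR2 ligands (green) or CXCR3 ligands (purple). Grey bars are genes outside the 9 members, among them Ppbp at -0.64. Cxcl9 and Cxcl10 stand at -1.37 and -1.62 beside flanking genes between -0.12 and 0.08.

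Genes whose 6 array values ran most like those of a member were found by the root mean square (RMS) difference after each gene's WT mean had been subtracted. For Cxcl10 these were Ifit3 (RMS difference 0.203 on the log2 scale), Ifit1 (0.253), Cxcl9 (0.32), H2-Ab1 (0.337) and Gbgt1 (0.341). Ifit3 and Ifit1 are antiviral interferon-stimulated genes, and H2-Ab1 encodes a chain of MHC class II. For Cxcl9 they were Gbgt1 (0.174), H2-Ab1 (0.211), Acod1 (0.231), H2-Aa (0.254) and the lectin receptor Clec4e (0.263). For Cxcl2 they were Cox7a1 (0.0574), Fam102a (0.0634), the interferon-inducible Ly6e (0.0682), Mllt6 (0.0683) and Cd79b (0.0737). With 2 groups of 3 arrays the measure mostly reflects a like size of change.

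Of the 8 receptors of CXC chemokines, Cxcr3 fell and 0 rose (0 also unadjusted), while 7 did not pass. Over all tested genes 3.83% fell and 2.9% rose, the shares to set beside the counts of this and the other lists. Cxcr3, the receptor of Cxcl9, Cxcl10 and Cxcl11, read 7.37, 7.49 and 7.46 in WT and 7.21, 7.19 and 7.04 in GPS2KO. Its groups did not overlap, and it fell by 0.29 (SE 0.0591, adjusted p = 0.027). Leaving out replicate 2 or 3 of either group ended that call (adjusted p up to 0.0889). Cxcr4, the receptor of Cxcl12, lay at 10.35 ± 0.04 and 10.40 ± 0.02 (SD, n = 3 each; difference 0.05, adjusted p = 0.547). Cxcr1, Cxcr2, Cxcr5, Cxcr6 and the atypical receptors Ackr1 and Ackr3 were dim in both groups, with differences between -0.04 and 0.09.

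Among 6 further CXC chemokines 1 fell, 1 rose and 4 did not pass. Ppbp, the platelet precursor of neutrophil-activating peptide, read 9.61, 9.22 and 9.17 in WT and 8.68, 8.57 and 8.82 in GPS2KO. It fell by 0.64 (SE 0.12, adjusted p = 0.0196). On leaving out GPS2KO replicate 1 or 2 it did not pass (adjusted p up to 0.0761). Its neighbour Pf4, platelet factor 4, went the other way, from 12.17 ± 0.05 to 12.38 ± 0.02 (SD, n = 3 each; rise of 0.22, adjusted p = 0.0236), and that call held among these arrays only when WT replicate 1 was the one left out (adjusted p otherwise up to 0.0816). Both are also platelet genes, and the other megakaryocyte markers tested, Gp9 and Itga2b, differed by -0.16 and -0.11 (adjusted p = 0.243 and 0.556). Gp9 was dim in both groups, and Itga2b lay close to the dim limit at 5.67 in WT and 5.56 in GPS2KO, so a change of either may be hidden. Cxcl5, Cxcl13, Cxcl15 and Cxcl17 were dim in both groups and differed by -0.08 to 0.08.

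The list of proteases that trim or shed CXC chemokines, with an inhibitor, held 7 genes. Of these, 2 rose, 1 fell and 4 did not pass, while 2.9% of all tested genes rose and 3.83% fell. Mmp12, the macrophage elastase, rose from 11.08 ± 0.09 to 12.19 ± 0.07 (SD, n = 3 each), by 1.11 (SE 0.0585, adjusted p = 0.000149). Mmp8, a collagenase best known from neutrophils, rose by 0.88 (SE 0.0613, adjusted p = 0.000323). Adam17, a sheddase of membrane-bound proteins, fell by 0.18 (SE 0.0417, adjusted p = 0.0435), and it passed again only when WT replicate 3 was the array left out (adjusted p otherwise up to 0.132). Adam10, which sheds Cxcl16, differed by -0.02 and the inhibitor Timp3 by 0.01. Mmp9 differed by 0.13, without overlap of groups (limma adjusted p = 0.207). Dpp4, which clips the CXCR3 ligands and Cxcl12, differed by -0.03 with dim signal. Of 9 neutrophil markers 2 rose, Mmp8 and Ngp, 0 fell (1 unadjusted) and 6 were dim in both groups. Ngp rose by 0.46 but did not pass without WT replicate 2, WT replicate 3, GPS2KO replicate 1 or GPS2KO replicate 2 (adjusted p up to 0.0617). S100a8, also above the dim limit, differed by 0.06 (limma adjusted p = 0.704).

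The interferon axis, which drives or restrains the CXCR3 ligands, had 18 tested genes, of which 4 fell, 0 rose and 14 did not pass. At an unadjusted limma p under 0.05, 8 fell and 0 rose. The median was -0.09, against -0.01 over all genes. Irf7, which amplifies the type I interferon response, fell by 0.98 (SE 0.1, adjusted p = 0.00149) and Usp18, a brake on interferon receptor signalling, by 1.08 (SE 0.173, adjusted p = 0.0103). Irf1, an activator of the CXCR3 ligand genes, fell by 0.33 (SE 0.0512, adjusted p = 0.00953), but its dimmer probe set differed by -0.06 (adjusted p = 0.598). Irf9, the DNA-binding subunit of the factor that type I interferon activates, fell by 0.21 (adjusted p = 0.0165) and did not pass when WT replicate 1 or any GPS2KO array was left out (adjusted p up to 0.0695). Stat2 differed by -0.21 (adjusted p = 0.064) and passed under 4 alternatives: centring on the array median (adjusted p = 0.0405), a trend of variance with signal (0.0144), dim genes left out (0.03) and GPS2KO replicate 2 left out (0.0402). Socs3, a feedback inhibitor, differed by -0.17 (adjusted p = 0.137). The genes of the interferons themselves, Ifnb1 and Ifng, were dim in both groups at differences of -0.03 and -0.13.

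The NF-kappaB and interleukin-1 axis, which drives or restrains the CXCR2 ligands, had 20 tested genes, of which 5 fell, 3 rose and 12 did not pass, with a median of -0.07. The falls were those of the inhibitors Nfkbie (by 0.72, SE 0.0529, adjusted p = 0.000408) and Nfkbia (by 0.34), the subunits Relb (by 0.61, SE 0.0484, adjusted p = 0.000521) and Nfkb2 (by 0.40), and Nfkbiz (by 0.32), a co-activator of secondary response genes. The rises were those of the inhibitor Tnfaip3 (0.26, adjusted p = 0.0151), Zfp36, which promotes decay of cytokine RNA (0.23, adjusted p = 0.0214), and the cytokine Il1a (0.65, adjusted p = 0.0379), which was dim in both groups. All 3 rises depended on single arrays. Tnfaip3 did not pass when GPS2KO replicate 2 or 3 was left out (adjusted p up to 0.0622), nor Zfp36 when replicate 1 or 3 of either group was (up to 0.0784), nor Il1a when any WT array or GPS2KO replicate 2 was (up to 0.124). Rela, the main activating subunit, differed by -0.08 (adjusted p = 0.259), Il1b by 0.17 (adjusted p = 0.107) and Tnf by 0.02 (adjusted p = 0.779). Nfkb1 was not analysed here.

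**Figure D5:**
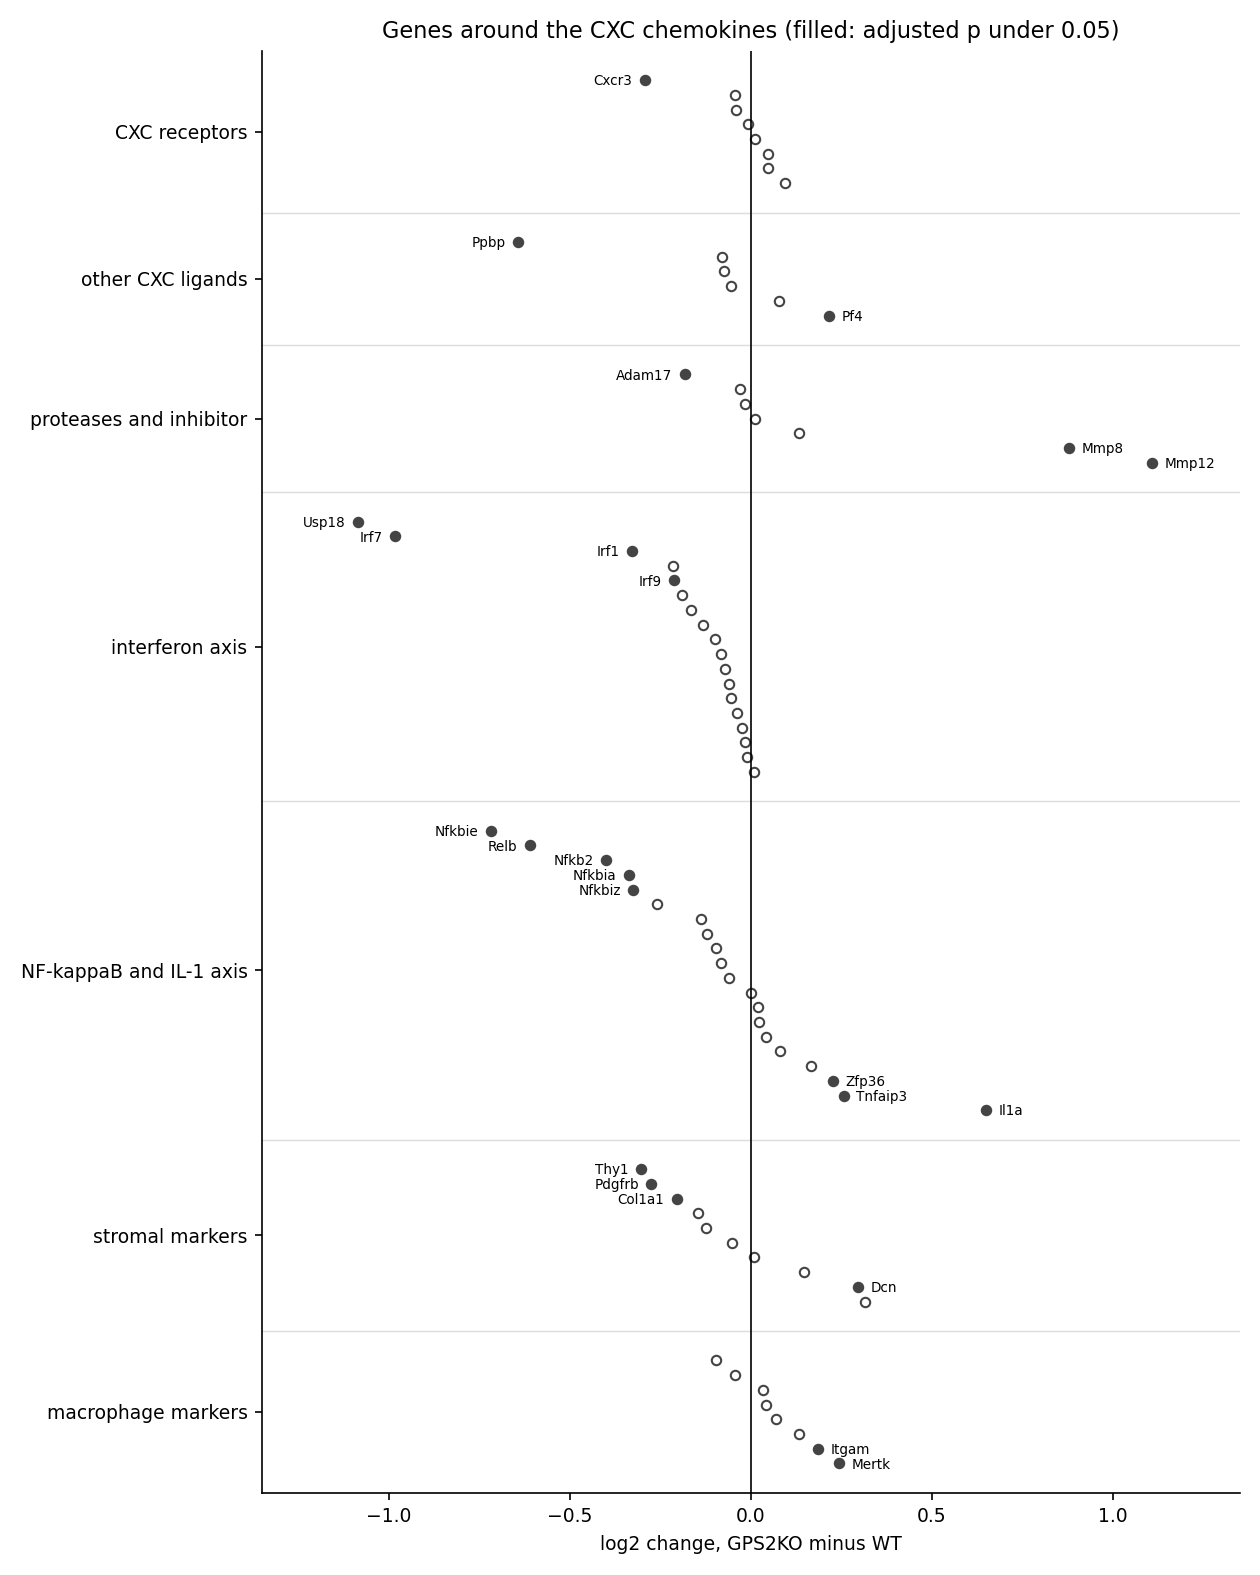
Log2 change, GPS2KO minus WT, of every tested gene in 7 lists, 1 point a gene, with filled and named points past the threshold. Usp18 and Irf7 lie furthest left at -1.08 and -0.98, and Mmp12 and Mmp8 furthest right at 1.11 and 0.88.

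Markers of lymphocytes, which respond to the CXCR3 ligands and can supply interferon gamma, were mostly at background. Of 8 markers of T and NK cells, 7 were dim in both groups. The eighth, Cd4, rose by 0.43 (adjusted p = 0.00142), from 8.75 ± 0.02 to 9.18 ± 0.06 (SD, n = 3 each), while Cd3e, Cd3g and Cd3d, the chains that define T cells, were dim and differed by -0.03 to -0.10. Of 4 B cell markers Cd79b fell, by 0.46 (adjusted p = 0.0037), and the other 3 were dim. Of 6 markers of dendritic cells Itgax, which macrophages also express, rose by 1.00 (adjusted p = 0.00132), while Flt3, Clec9a, Xcr1 and Siglech were dim and Zbtb46, above the dim limit, differed by -0.09 (adjusted p = 0.432). Among 5 endothelial markers 2 rose, Emcn by 0.56 (adjusted p = 0.0041) and Cdh5 by 0.35 (adjusted p = 0.0318), the latter not when WT replicate 1 or 3 or GPS2KO replicate 1 or 2 was left out (adjusted p up to 0.101). All 4 erythroid markers were dim. The log2 of the summed linear signals ran from 9.20 to 9.22 in WT and 9.49 to 9.57 in GPS2KO for T and NK cells. For B cells it ran from 7.64 to 7.74 and 7.36 to 7.45, and for dendritic cells from 8.59 to 8.81 and 9.33 to 9.58. For endothelial cells it ran from 8.95 to 9.01 and 9.26 to 9.40. The sums for T and NK, B and dendritic cells are carried mostly by the single bright genes Cd4, Cd79b and Itgax, and the median change of the 8 T and NK markers was -0.02. The part of these cell types in the chemokine falls was not tested.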

How the data were processed

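The authors deposited a log2 intensity for each probe set on each array. These were made with RMA in the R package oligo, per the submitters' processing notes. RMA corrects background, normalizes by quantiles across arrays and summarises by median polish. Tool versions are not stated in those notes. Such processing makes arrays more alike, so a shift shared by most genes would be hidden, and the values carry no detection calls. Values from 2.42 to 13.99 fit a log2 scale.

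Of 35556 probe sets, 21218 had 1 symbol in GEO's platform annotation, 1881 had several and 12457 were not listed. By gene number, 21185 matched RefSeq (GRCm38.p6). The probe set of highest mean stood for a gene. All 18820 genes were tested with limma 3.58.1 in R 4.3.3 (lmFit, eBayes, group as the only term), without a filter on dim genes. P-values are 2-sided, adjusted by Benjamini-Hochberg over all genes at 0.05. Changes are GPS2KO minus WT. The calculation was tested on simulated data. The small number of arrays limits the precision.

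The members and lists were chosen with earlier results of these data known, and the sequence patterns after the promoters had been read. The text names all members, Gps2, all genes of the receptor, ligand and protease lists, the 6 smallest p of the interferon and NF-kappaB lists, marker genes past the threshold or brightest, 5 genes of likest pattern for Cxcl10, Cxcl9 and Cxcl2 (predicted genes passed over) and 3 tested neighbours a side. Il1a, Zfp36, the other members of lists with few calls, and Rela, Il1b, Tnf, Ifnb1 and Ifng were named after their values were seen. Alternatives were quantile normalization, median centring, a variance trend, a robust prior, no dim genes, other probe set rules, the replicate number as a block and leaving out each array.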

Additional observations from a re-analysis of the deposited data

How the results depend on the processing

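The falls of Cxcl9, Cxcl10, Cxcl14 and Cxcl16 passed under all 14 alternatives, and the count of members that rose stayed at 0. Without 1 array each, 4 to 5 members fell, Cxcl2 being the one lost. Over all genes, 419 to 503 fell and 322 to 376 rose with 1 array left out, against 720 and 545. With a variance trend 1248 fell and 926 rose, and without dim genes 1154 fell and 808 rose. With a trend 7 genes of the interferon axis fell in place of 4, and in the NF-kappaB list 1 rose in place of 3 when WT replicate 1 or 3 or GPS2KO replicate 2 or 3 was left out. Same-numbered arrays did not deviate together (correlations 0.00348, 0.0258 and -0.00604), and 1 of 3 WT arrays correlated best with its own number. With 3 arrays a group these values cannot exclude a pairing of samples by number. With the replicate number as a block, 492 genes fell and 370 rose and 4 members fell: Cxcl2 had adjusted p = 0.0552, and Cxcr3, Pf4, Adam17, Irf9, Ifit1, Zfp36, Itgam, Col1a1, Dcn, Thy1 and Cdh5 did not pass either. The change of Cxcl10 relative to Cxcl2 ran from -1.29 to -0.951 with 1 array left out. No called value changed direction in 937 recomputed values of 68 named genes. Each member had 1 probe set, so the probe set rules left the members' values as they were. Low signal limits Cxcl1, Cxcl3 and Cxcl11.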

Other observations

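Promoter patterns were counted over the 14749 tested genes with an upstream stretch in the RefSeq table, of which 574 fell and 420 rose. The ISRE core stood in 6.27% of the genes that fell, 3.33% of those that rose and 3.42% of all. The kappaB pattern stood in 8.89%, 4.05% and 5.47%, and TTCNNNGAA in 7.49%, 8.10% and 7.79%. No test was made of these shares, and a match is not a bound site.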
